A study of Mus musculus with 8 samples.

Results

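Transcripts of the antigen receptor genes, the immunoglobulin and T cell receptor (TCR) genes, were followed in RNA-seq of sorted mouse medullary thymic epithelial cells (mTECs). All genes of the count table that the GENCODE annotation types as an immunoglobulin or TCR gene were taken, and pseudogenes were left out. This gave 177 of 25466 genes, 110 of them immunoglobulin and 67 TCR genes, and the choice used the annotation and no count. Of 494 such genes in the annotation, the others were not in the table, which lists only genes with a count in at least 2 libraries. The 177 comprised 20 constant (C) genes, 145 variable (V) genes and 12 joining (J) genes. No diversity gene was in the table.

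All mice were wild-type, labelled wt and given as BL6N6 in the study's methods, aged 4 to 6 weeks, and carried no transgene or treatment. Thymi were digested, CD45-positive cells were depleted with magnetic beads, and live CD45-negative, Epcam-positive, CDR1-negative cells were sorted by the surface proteins Tspan8 and MHC class II (MHCII). Tspan8 served as an example of a tissue-restricted antigen and MHCII as a marker of maturation. The 4 subsets Tspan8neg MHCIIlow, Tspan8neg MHCIIhigh, Tspan8pos MHCIIhigh and Tspan8pos MHCIIlow had 2 libraries each, labelled biological replicates 1 and 2. The number of mice behind a library is not given in the sources used here, so p-values measure the spread between these libraries.

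Each B cell joins V, D and J segments of the heavy chain locus Igh and V and J segments of a light chain locus, Igk or Igl, and the joined exon is transcribed with a C gene that sets the isotype. IgM and IgD mark naive B cells, whereas IgG, IgA and IgE follow class switching, and plasma cells fill much of their transcriptome with immunoglobulin mRNA. Unrearranged C genes can be transcribed as well. T cells rearrange Tra and Trb or Trg and Trd in the thymic cortex, with the recombinase genes Rag1 and Rag2 and the polymerase gene Dntt. Thymocytes are the most numerous cells around mTECs, and the thymus also houses B cells and plasma cells in its medulla and septa.

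The sequences of the V genes on which the results below turn are shown first. Ighv11-2 and Igkv14-126, whose protein products pair in antibodies of B-1 cells against phosphatidylcholine, had counts in both Tspan8neg MHCIIlow libraries and in 1 Tspan8pos MHCIIlow library. Igkv12-44 had similar counts in both Tspan8neg MHCIIlow libraries, Igkv1-117 had counts almost entirely in replicate 2 of that subset, and Trbv13-2 was the TCR V gene with the highest mean. Each line gives the last 150 coding bases of the germline gene, read 5′ to 3′ on its own strand (GENCODE transcripts, GRCm38), with the codon of the last cysteine, close to the junction, in capitals.
Ighv11-2 (chr12:114048241-114048390, minus strand): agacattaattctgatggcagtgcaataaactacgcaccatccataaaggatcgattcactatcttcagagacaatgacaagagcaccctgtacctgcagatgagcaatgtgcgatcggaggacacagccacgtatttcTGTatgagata
Igkv14-126 (chr6:67896493-67896642, plus strand): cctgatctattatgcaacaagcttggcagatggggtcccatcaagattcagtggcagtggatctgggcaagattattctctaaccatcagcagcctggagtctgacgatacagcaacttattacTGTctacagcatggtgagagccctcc
Igkv12-44 (chr6:69814631-69814780, minus strand): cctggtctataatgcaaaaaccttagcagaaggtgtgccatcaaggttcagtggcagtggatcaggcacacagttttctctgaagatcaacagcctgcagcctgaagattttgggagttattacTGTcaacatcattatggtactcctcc
Igkv1-117 (chr6:68121678-68121827, plus strand): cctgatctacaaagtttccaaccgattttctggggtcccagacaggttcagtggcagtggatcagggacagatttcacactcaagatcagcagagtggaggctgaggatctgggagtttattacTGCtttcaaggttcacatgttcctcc
Trbv13-2 (chr6:41121683-41121832, plus strand): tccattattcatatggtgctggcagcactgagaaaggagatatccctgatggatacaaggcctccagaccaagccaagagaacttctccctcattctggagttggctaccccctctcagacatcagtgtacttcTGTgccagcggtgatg

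The 2 J genes of the heavy chain with the highest mean are shown in the same way, with the codons of the conserved W-G-X-G motif in capitals. Ighj2 had 4 and 9 counts in the Tspan8neg MHCIIlow libraries, 1 count in replicate 2 of Tspan8neg MHCIIhigh and none elsewhere, and Ighj4 had 3 and 3 counts and 1 count in the same libraries.
Ighj2 (chr12:113429468-113429515, minus strand): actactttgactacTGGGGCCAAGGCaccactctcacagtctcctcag
Ighj4 (chr12:113428514-113428567, minus strand): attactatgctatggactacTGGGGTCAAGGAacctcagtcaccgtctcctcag

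Library totals ranged from 1941518 to 7783841 counts, so that 3 counts, the floor for a gene at 0, stood for 0.385 to 1.55 CPM (count in a library divided by its total and scaled to 1000000). All intervals below are 95% intervals that cover counting error only, since amplified reads are not independent molecules. The summed level of 10 mTEC genes, among them Epcam, Krt5 and Aire, was 4744 to 10659 CPM over the 8 libraries. H2-Aa, an MHCII gene of this list, had a mean of 5133 CPM in Tspan8neg MHCIIhigh and 1338 CPM in Tspan8neg MHCIIlow. Epcam alone was at 534 and 396 CPM in Tspan8neg MHCIIlow and 542 to 1013 CPM elsewhere. Such levels do not show how pure a library was. Replicate 1 of Tspan8pos MHCIIlow was the shallowest library, and 100 of 110 immunoglobulin genes and 56 of 67 TCR genes were at 0 in it, whereas replicate 2 of that subset was the deepest.

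Antigen receptor transcripts were concentrated in Tspan8neg MHCIIlow mTECs. Summed over the 177 genes, they made up 0.241% and 0.453% of all counts in the 2 libraries of that subset, against 0.0189% and 0.0281% in Tspan8neg MHCIIhigh, 0.00786% and 0.013% in Tspan8pos MHCIIhigh and 0.00685% and 0.0264% in Tspan8pos MHCIIlow. The Tspan8neg MHCIIlow libraries did not overlap the others. In a bulk library, fewer cells of a type and less RNA per cell cannot be told apart.

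The immunoglobulin sum carried most of this signal. It reached 2147 and 3921 CPM in Tspan8neg MHCIIlow, 154 and 213 CPM in Tspan8neg MHCIIhigh, 51.2 and 77.9 CPM in Tspan8pos MHCIIhigh and 35.5 and 186 CPM in Tspan8pos MHCIIlow. The mean was therefore 27.4-fold lower in Tspan8pos than in Tspan8neg at MHCIIlow and 16.5-fold lower in MHCIIhigh than in MHCIIlow within Tspan8neg, differences of −4.77 ± 1.8 and −4.05 ± 0.70 on the log2 scale (± SD of the replicates, n = 2 per subset). The former rested on the uneven Tspan8pos MHCIIlow libraries, with a log2 difference of −4.03 without replicate 1 and −6.42 without replicate 2 of that subset, and of −5.64 without Ighm. At MHCIIhigh, the immunoglobulin sum was 2.84-fold lower in Tspan8pos (log2 −1.51 ± 0.54), again without overlap of the libraries. Within Tspan8pos the difference between MHCII levels was smaller than the spread (log2 −0.78 ± 1.74) and turned to 0.86 without replicate 2 of Tspan8pos MHCIIlow. These ratios are given without a test, and the 2 comparisons with Tspan8neg MHCIIlow share its libraries.

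The TCR sum was also highest in Tspan8neg MHCIIlow. It was 264 and 604 CPM in Tspan8neg MHCIIlow, 34.5 and 68.4 CPM in Tspan8neg MHCIIhigh, 27.4 and 52.3 CPM in Tspan8pos MHCIIhigh and 33.0 and 77.9 CPM in Tspan8pos MHCIIlow. The other 3 subsets overlapped each other. The mean in Tspan8neg MHCIIlow was 7.84-fold that of Tspan8pos MHCIIlow (log2 −2.97 ± 1.22) and 8.44-fold that of Tspan8neg MHCIIhigh (log2 −3.08 ± 1.10), while the Tspan8 comparison at MHCIIhigh gave log2 −0.37 ± 0.96. Without replicate 2 of Tspan8neg MHCIIlow the 2 former differences were −2.25 and −2.36, and without replicate 2 of Tspan8pos MHCIIlow the first was −3.72. In every subset replicate 2 was higher than replicate 1, by 1.91 to 2.36 times for TCR genes and by 1.38 to 5.24 times for immunoglobulin genes.

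**Figure D1:**
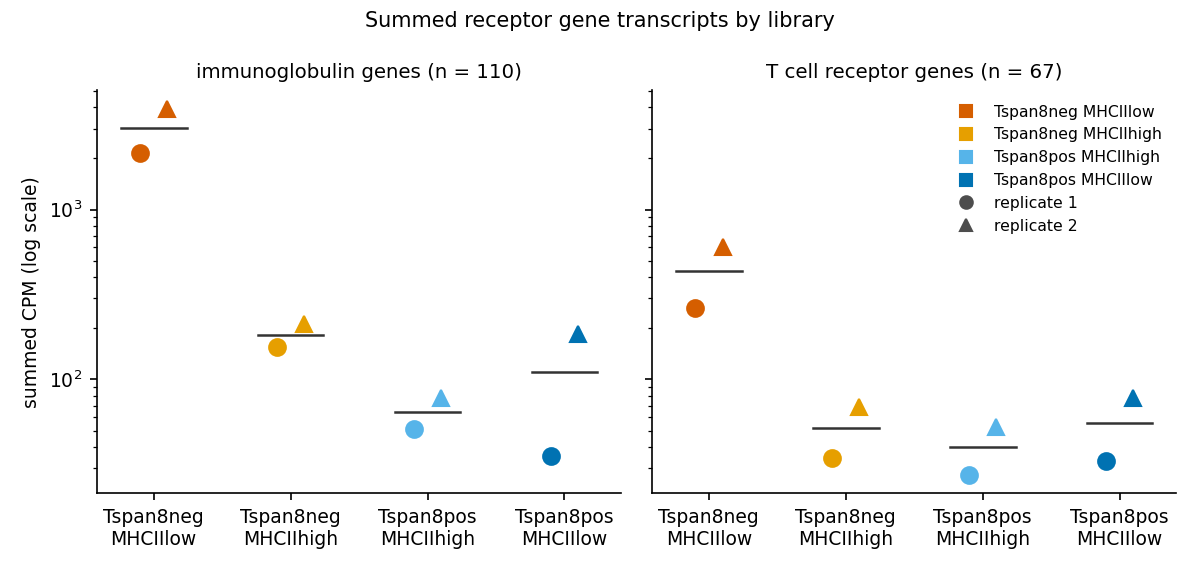
Summed CPM of the immunoglobulin and TCR genes (log axis) in each of the 8 libraries, grouped by subset, with 1 point per library and a line at the mean of each subset. Both Tspan8neg MHCIIlow libraries lie above the other 6 in both sums, at 2147 and 3921 CPM for immunoglobulin and 264 and 604 CPM for TCR genes.

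By gene, 94 of 110 immunoglobulin and 61 of 67 TCR genes had their highest CPM in a Tspan8neg MHCIIlow library, 61 and 43 of these in replicate 2. Since the table needs counts in 2 libraries, 56 immunoglobulin and 31 TCR genes were in it only with the help of Tspan8neg MHCIIlow, 25 and 6 of them at 0 in all 6 other libraries, and these tend to be highest there by the listing alone. Among the 54 immunoglobulin and 36 TCR genes with a count in at least 2 of the 6 other libraries, 40 and 31 had their highest CPM in a Tspan8neg MHCIIlow library, which was so for 31.5% of all genes listed in this way. Both libraries of that subset lay above all 6 others for 18 and 19 of these genes, against 15.4% of all such genes. After the filter on low counts, 47 of the 177 genes could be tested (35 immunoglobulin, 12 TCR) among 17006 genes in all. Calls needed a Benjamini-Hochberg adjusted p below 0.01 in edgeR's quasi-likelihood test and a log2 fold change of 1 or more in size. In Tspan8pos against Tspan8neg at MHCIIlow, 26 immunoglobulin and 9 TCR genes were called lower and none higher, while 9.34% of all tested genes were called lower and 12.1% higher. For MHCIIhigh against MHCIIlow in Tspan8neg, 28 immunoglobulin and 9 TCR genes were called lower and none higher, with 9.67% of all genes lower and 13.1% higher. The former total of 35 was 21 without replicate 1 and 15 without replicate 2 of Tspan8pos MHCIIlow, and the latter total of 37 was 23 without replicate 1 and 20 without replicate 2 of Tspan8neg MHCIIhigh.

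Of the 47 tested genes, 30 passed the filter only with the help of their counts in Tspan8neg MHCIIlow. Such genes tend to be highest there by the filter alone, so the counts of all called genes are no support. The other 17 reached 2.06 CPM in at least 2 libraries outside that subset. Among these, 7 of 11 immunoglobulin and 6 of 6 TCR genes were called lower in Tspan8pos at MHCIIlow, and 8 of 11 and 5 of 6 were called lower in MHCIIhigh within Tspan8neg. The median log2 difference of these 11 immunoglobulin genes was −4.87 in the former and −3.72 in the latter comparison, and that of these 6 TCR genes −2.37 and −3.26, beside medians of −0.03 and −0.04 over all genes.

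Away from Tspan8neg MHCIIlow, few differences passed the test. At MHCIIhigh, Ighg2b alone was called lower in Tspan8pos (of all genes, 7.45% were called lower and 11.0% higher), and 9 immunoglobulin and no TCR genes had an unadjusted p under 0.05, all lower. Between MHCII levels in Tspan8pos, edgeR and DESeq2 called 0 genes (background 2.62% lower, 4.59% higher), and 1 immunoglobulin gene was higher and 4 immunoglobulin and 3 TCR genes lower at an unadjusted p under 0.05. The difference between the 2 MHCII effects was called for Ighg2b alone, at 4.96 ± 0.71 (log2 ± SE, adjusted p = 0.00174), beside 2.24% of all genes called in that direction and 2.36% in the other. Without replicate 1 of either MHCIIhigh subset Ighg2b was no longer called at MHCIIhigh (log2 −1.69 without that of Tspan8neg and −1.38 without that of Tspan8pos), nor was its interaction without replicate 2 of either Tspan8pos subset (4.04 without that of MHCIIhigh and 4.13 without that of MHCIIlow).

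Heavy chain C genes. Ighm, the C gene of IgM (chr12:113418558-113422730, GRCm38), was at 474 and 852 CPM in Tspan8neg MHCIIlow, 37.1 and 60.9 CPM in Tspan8neg MHCIIhigh, 18.8 and 32.5 CPM in Tspan8pos MHCIIhigh and 18.0 and 109 CPM in Tspan8pos MHCIIlow. It fell by 3.08 ± 0.56 (log2 ± SE) in Tspan8pos against Tspan8neg at MHCIIlow (edgeR adjusted p = 0.00118) and fell by 3.75 ± 0.57 in MHCIIhigh against MHCIIlow within Tspan8neg (adjusted p = 0.000393). Replicate 2 of Tspan8pos MHCIIlow lay above all 4 MHCIIhigh libraries in Ighm, and replicate 1 below them.

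Larger differences were fitted for several C genes of switched isotypes. Ighg2b, of IgG2b, was at 389 and 409 CPM in Tspan8neg MHCIIlow, 10.3 and 6.30 CPM in Tspan8neg MHCIIhigh, 0.920 and 2.71 CPM in Tspan8pos MHCIIhigh and 5.15 and 2.18 CPM in Tspan8pos MHCIIlow. The 4 Tspan8neg libraries lay above all 4 Tspan8pos libraries. The log2 differences were −6.93 ± 0.35 (Tspan8 at MHCIIlow, adjusted p = 1.904e-07), −1.97 ± 0.45 (Tspan8 at MHCIIhigh, adjusted p = 0.00513) and −5.64 ± 0.29 (MHCII in Tspan8neg, adjusted p = 5.899e-07). Ighg2c, of IgG2c, was as unequal. It had 612 and 1354 counts in Tspan8neg MHCIIlow, 8 and 28 in Tspan8neg MHCIIhigh, 1 and 4 in Tspan8pos MHCIIhigh and 0 and 3 in Tspan8pos MHCIIlow. Pooled over replicates, the Ighg2c level in Tspan8neg MHCIIlow was 863 times that in Tspan8pos MHCIIlow (interval 295 to 4188), 564 times that in Tspan8pos MHCIIhigh (241 to 1739) and 87.7 times that in Tspan8neg MHCIIhigh (63.1 to 126). A small part of Ighg2b and Ighg2c is identical, 3.54% and 4.56% of their 54-base windows, so single counts could pass between them.

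Igha, of IgA, had 383 and 1581 counts in Tspan8neg MHCIIlow, 52 and 97 in Tspan8neg MHCIIhigh, 1 and 12 in Tspan8pos MHCIIhigh and 0 and 22 in Tspan8pos MHCIIlow. It was called lower in both comparisons with Tspan8neg MHCIIlow (log2 −6.68 ± 0.74, adjusted p = 3.854e-05, and −4.36 ± 0.57, adjusted p = 0.000133), as was Ighg1, of IgG1, at 60 and 439 counts against 13 and 47 in Tspan8neg MHCIIhigh and 0 and 3 in Tspan8pos MHCIIlow. The Ighg1 call within Tspan8neg was lost without replicate 2 of Tspan8neg MHCIIlow (log2 −1.91) or either replicate of Tspan8neg MHCIIhigh (−3.24 and −4.39), and that at MHCIIlow without replicate 2 of Tspan8pos MHCIIlow. Ighg3, of IgG3, was uneven between replicates, with 0 and 95 counts in Tspan8neg MHCIIlow and 22 and 42 in Tspan8neg MHCIIhigh, and was called in none of the 5 comparisons. Ighd, of IgD, the isotype that naive B cells carry beside IgM, had 0 to 16 counts in every library and was also called in none, and Ighe, of IgE, had at most 5 counts.

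**Figure D2:**
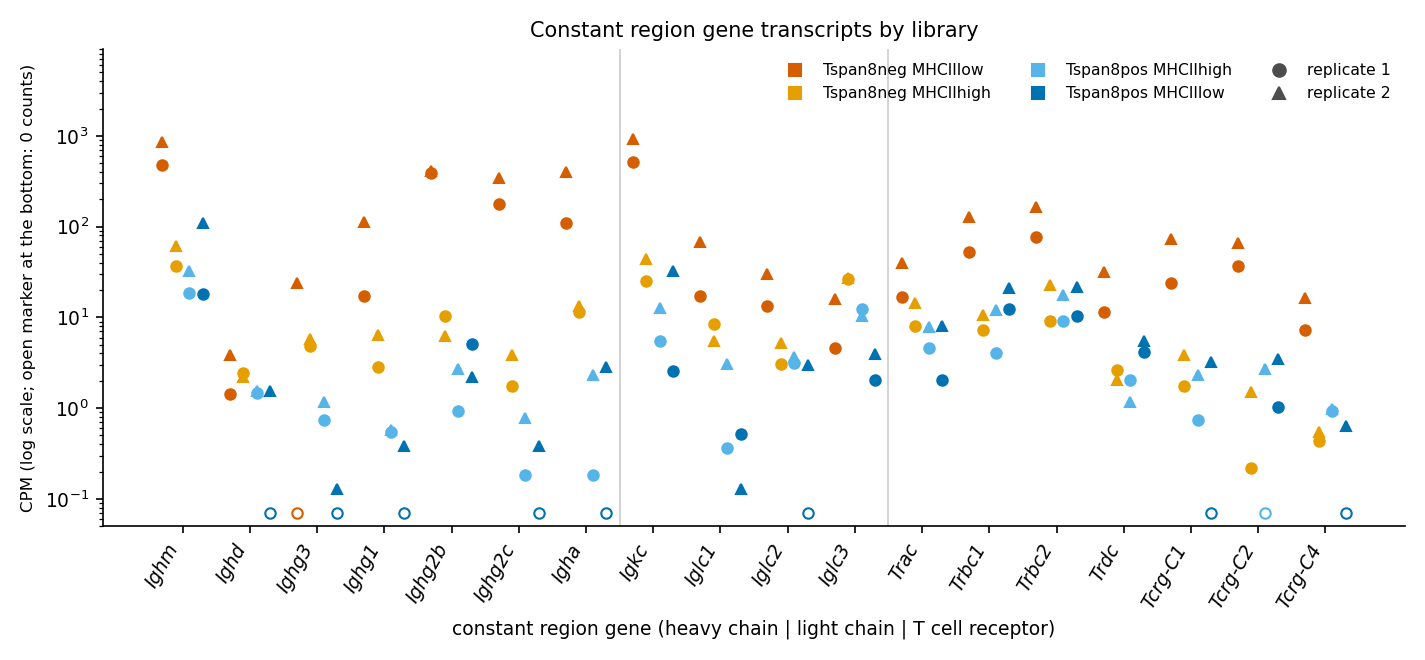
CPM of the C genes of the immunoglobulin and TCR loci (log axis), with 1 point per library coloured by subset and open points at the bottom for 0 counts, without Ighe and Tcrg-C3, which had at most 5 counts in a library. The Tspan8neg MHCIIlow points lie highest for most genes, Ighm, Igkc and Ighg2b reaching 852, 925 and 409 CPM, while Iglc3 is highest in Tspan8neg MHCIIhigh at 26.8 CPM in both libraries.

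The isotypes made up different shares of the heavy chain C counts. IgG, IgA and IgE genes together took 59.3% (57.8 to 60.8, Wilson interval) and 60.2% (59.1 to 61.2) of them in Tspan8neg MHCIIlow and 44.3% (39.0 to 49.7) and 36.5% (33.1 to 40.1) in Tspan8neg MHCIIhigh. In Tspan8pos MHCIIhigh the share was 12.7% (7.97 to 19.6) and 18.9% (14.2 to 24.6), and in Tspan8pos MHCIIlow 22.2% (12.5 to 36.3) and 5.19% (3.92 to 6.83). All 4 Tspan8neg libraries thus lay above all 4 Tspan8pos libraries. Ighm took nearly all of the remainder, from 39.7% in Tspan8neg MHCIIlow replicate 2 to 93.5% (91.7 to 94.9) in Tspan8pos MHCIIlow replicate 2. These are shares of counts, not corrected for gene length, and they rest on 45 heavy chain C counts in the shallowest library and 8438 in the richest.

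Ighg2c kept a larger share in Tspan8neg MHCIIlow than in any other subset. Its share of heavy chain C counts was 15.1% (14.1 to 16.3) and 16.0% (15.3 to 16.8) in Tspan8neg MHCIIlow, 2.48% (1.26 to 4.81) and 3.86% (2.68 to 5.52) in Tspan8neg MHCIIhigh, and at most 1.84% (0.719 to 4.64) in a Tspan8pos library. Igha held 9.47% and 18.7% in Tspan8neg MHCIIlow and 16.1% (12.5 to 20.5) and 13.4% (11.1 to 16.0) in Tspan8neg MHCIIhigh, shares that overlapped. The replicates of Tspan8neg MHCIIlow also differed from each other in Ighg2b, at 33.3% (31.8 to 34.7) and 19.0% (18.2 to 19.9).

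**Figure D3:**
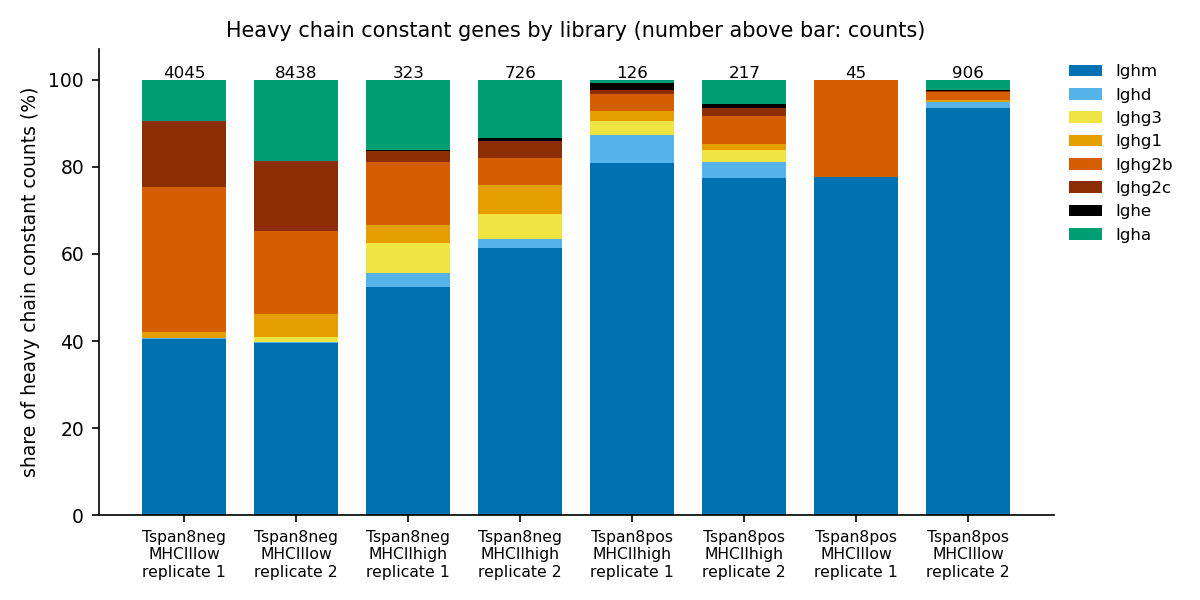
Share of heavy chain C counts taken by each isotype in each library, as stacked bars from 0 to 100%, with the heavy chain C counts of the library above each bar. IgG, IgA and IgE genes together take 59.3% and 60.2% in Tspan8neg MHCIIlow but 5.19% to 22.2% in the 4 Tspan8pos libraries, where Ighm takes 77.4% or more.

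Light chain genes. Igkc, the only kappa C gene (chr6:70726435-70726966), was at 514 and 925 CPM in Tspan8neg MHCIIlow, 25.3 and 44.2 CPM in Tspan8neg MHCIIhigh, 5.52 and 12.6 CPM in Tspan8pos MHCIIhigh and 2.58 and 32.5 CPM in Tspan8pos MHCIIlow. It fell by 4.87 ± 0.60 on the log2 scale in Tspan8pos at MHCIIlow (adjusted p = 8.349e-05) and fell by 4.35 ± 0.57 in MHCIIhigh within Tspan8neg (adjusted p = 0.00014). At MHCIIhigh its difference between Tspan8pos and Tspan8neg was −1.79 ± 0.63 and missed the threshold (adjusted p = 0.0444). Per kilobase of exon it was the highest of all C genes in Tspan8neg MHCIIlow, with a mean of 1352 CPM per kb against 352 for Ighm and 197 for Ighg2c.

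The lambda genes differed among themselves. Iglc1 and Iglc2 were called lower in both comparisons with Tspan8neg MHCIIlow, where Iglc1 fell by 7.34 ± 1.07 and fell by 2.64 ± 0.62 on the log2 scale. Leaving out 1 library ended the call of Iglc1 within Tspan8neg in 5 of 8 cases, down to a log2 difference of −1.38 without replicate 2 of Tspan8neg MHCIIlow, and that of Iglc2 in 5 of 8, with −1.70 without that library. At MHCIIlow, Iglc1 was no longer called without replicate 2 of Tspan8pos MHCIIlow (−6.12). Iglc3 had its highest levels in Tspan8neg MHCIIhigh, at 26.8 and 26.8 CPM, against 4.63 and 16.0 CPM in Tspan8neg MHCIIlow, 12.5 and 10.5 CPM in Tspan8pos MHCIIhigh and 2.06 and 3.98 CPM in Tspan8pos MHCIIlow. The libraries of each MHCIIhigh subset lay above those of the MHCIIlow subset of the same Tspan8 status, but no Iglc3 difference was called (Tspan8neg log2 1.35 ± 0.41, adjusted p = 0.0214, Tspan8pos log2 1.74 ± 0.49, adjusted p = 0.0337). The gene 2010309G21Rik overlaps Iglc1, Iglc3 and Iglv1 on the other strand and had at most 2 counts in a library, and the sources used here do not settle whether counting used the strand. Igkc took 93.6% (92.4 to 94.6) and 89.0% (88.0 to 89.9) of light chain C counts in Tspan8neg MHCIIlow, 39.8% and 54.1% in Tspan8neg MHCIIhigh, 25.6% and 42.2% in Tspan8pos MHCIIhigh and 50.0% and 82.1% in Tspan8pos MHCIIlow, where the 50.0% rests on 10 counts.

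TCR C genes. Trbc1 and Trbc2, the C genes of the beta chain, share 39.6% and 43.0% of their 54-base windows, so reads could be split between them. Trbc2 was at 76.1 and 166 CPM in Tspan8neg MHCIIlow, 9.01 and 23.0 CPM in Tspan8neg MHCIIhigh, 9.02 and 17.4 CPM in Tspan8pos MHCIIhigh and 10.3 and 21.7 CPM in Tspan8pos MHCIIlow. It fell by 2.60 ± 0.47 on the log2 scale in Tspan8pos at MHCIIlow (adjusted p = 0.00116) and fell by 2.87 ± 0.46 in MHCIIhigh within Tspan8neg (adjusted p = 0.000502). Trbc1 was called in both as well. Its call at MHCIIlow was lost without replicate 2 of Tspan8neg MHCIIlow or either replicate of Tspan8pos MHCIIlow (log2 −1.41, −1.93 and −2.67), and that of Trbc2 was lost without replicate 1 of Tspan8pos MHCIIlow (−2.32). Trac, of the alpha chain, was at 16.8 and 40.2 CPM in Tspan8neg MHCIIlow, 8.13 and 14.5 CPM in Tspan8neg MHCIIhigh, 4.60 and 7.75 CPM in Tspan8pos MHCIIhigh and 2.06 and 8.09 CPM in Tspan8pos MHCIIlow. Its call at MHCIIlow (−2.05 ± 0.53, adjusted p = 0.00929) was lost when any library but replicate 1 of Tspan8neg MHCIIlow was left out (log2 −3.60 to −1.31), and within Tspan8neg it was not called (−1.31 ± 0.48, adjusted p = 0.0459).

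Gamma chain C genes had larger fitted differences than the other TCR C genes. Tcrg-C1 and Tcrg-C2 share 31.1% and 22.2% of their 54-base windows with other genes, so reads could be split among relatives. Tcrg-C2 had 126 and 261 counts in Tspan8neg MHCIIlow, 1 and 11 in Tspan8neg MHCIIhigh, 0 and 14 in Tspan8pos MHCIIhigh and 2 and 27 in Tspan8pos MHCIIlow, and fell by 4.02 ± 0.70 and fell by 5.68 ± 0.77 on the log2 scale in the 2 comparisons with Tspan8neg MHCIIlow, the former call being lost without replicate 2 of Tspan8pos MHCIIlow (−5.43). Tcrg-C1 and Tcrg-C4 were called in both as well, and Tcrg-C3 had at most 4 counts. Tcrg-C4 passed the filter only with the help of Tspan8neg MHCIIlow, so its calls are no support. Gamma genes made up 30.4% (27.2 to 33.7) and 30.0% (28.1 to 32.0) of TCR C counts in Tspan8neg MHCIIlow and 3.45% (0.951 to 11.7) to 13.5% (9.70 to 18.6) in the other 6 libraries, whose intervals lay below. Trac made up 7.46% and 7.71% in Tspan8neg MHCIIlow and 27.2% (20.4 to 35.2) and 25.9% (21.9 to 30.3) in Tspan8neg MHCIIhigh. Its share was 21.2% and 17.5% in Tspan8pos MHCIIhigh and 6.90% (2.71 to 16.4) and 12.6% (9.99 to 15.8) in Tspan8pos MHCIIlow. A low Trac share was thus not particular to Tspan8neg MHCIIlow. Trdc, of the delta chain, was at 11.6 and 31.8 CPM in Tspan8neg MHCIIlow and at most 5.52 CPM elsewhere. Its call at MHCIIlow (log2 −1.93 ± 0.48) was lost when any library but replicate 1 of Tspan8neg MHCIIlow was left out (−2.21 to −1.07). An annotated V gene, Trdv5, overlaps Trdc on the other strand.

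The V genes, whose counts are part of the sums above, were also counted by the number of genes seen. Immunoglobulin V genes with a count numbered 58 and 78 of 95 in Tspan8neg MHCIIlow, 35 and 47 in Tspan8neg MHCIIhigh, 12 and 16 in Tspan8pos MHCIIhigh and 5 and 16 in Tspan8pos MHCIIlow. Scaled to the smallest total, 1941518 counts, these were 55.4 and 72.8, 21.3 and 27.6, 7.27 and 8.90, and 5 and 11.4, so Tspan8neg MHCIIlow, and then Tspan8neg MHCIIhigh, stood above the rest after scaling too. TCR V genes with a count, scaled in the same way, numbered 27.8 and 33.6 of 50 in Tspan8neg MHCIIlow and 5 to 14.8 in the other 6 libraries. V genes seen in 1 library only are not in the table, so the numbers of V genes are minimums. Of all 110 immunoglobulin and 67 TCR genes, 56 and 31 were listed only with the help of Tspan8neg MHCIIlow. The lead of that subset in these numbers is therefore partly set by the listing.

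The V genes of the 2 Tspan8neg MHCIIlow libraries overlapped in part. Of the 95 listed immunoglobulin V genes, 48 were above 3 counts in replicate 1 and 63 in replicate 2. In both, 32 were above 3 counts, 66.7% of the former and 50.8% of the latter. Unrelated sets of these sizes out of the 95 listed genes would overlap about as much. V genes seen in 1 library only are not listed, so the overlap cannot tell whether the libraries had a common repertoire. In these 2 libraries Igkv12-44 had 128 and 136 counts, Igkv10-96 had 92 and 95, and Ighv1-53 had 58 and 80. None of the 3 had more than 10 counts in another library. Other V genes were nearly private to a replicate: Igkv1-117 had 0 and 242 counts, Ighv3-6 had 0 and 102, Ighv1-72 had 10 and 188, and Igkv8-30 had 46 and 0. In all, 24 immunoglobulin V genes were above 3 counts in replicate 2 and at 0 in replicate 1, and 7 the other way round. The Ighv1-72, Igkv1-117 and Ighv11-2 transcripts share 91.3%, 47.0% and 36.0% of their 54-base windows with other genes, so their counts may hold reads of relatives.

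**Figure D4:**
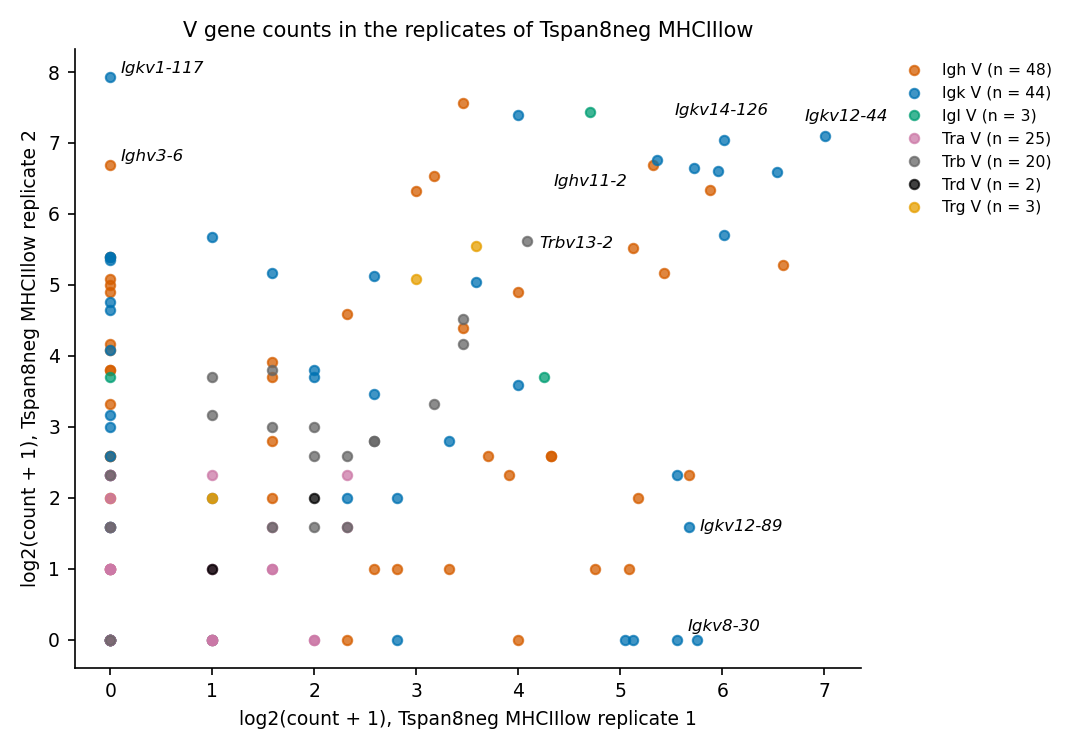
Counts of each V gene in the 2 replicates of Tspan8neg MHCIIlow (both axes log2 of the count plus 1, 1 point per V gene, coloured by locus). Igkv12-44, at 128 and 136 counts, lies near the diagonal, whereas Igkv1-117, at 0 and 242 counts, lies on the axis of replicate 2.

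Tspan8pos MHCIIlow replicate 2 had few V genes above 3 counts. All 10 immunoglobulin V genes above 3 counts in it were also above 3 counts in a Tspan8neg MHCIIlow library. In replicate 2 of Tspan8neg MHCIIhigh this was so for 13 of 20, and 3 were at 0 in both Tspan8neg MHCIIlow libraries. Of the 95 listed immunoglobulin V genes, 48 and 63 were above 3 counts in the Tspan8neg MHCIIlow libraries, 32 of them in both. Most listed V genes thus met this condition, so the 10 of 10 is no sign of common V genes. Ighv11-2 had 30 counts in Tspan8pos MHCIIlow replicate 2, 39 and 102 in Tspan8neg MHCIIlow and 0 in the other 5 libraries. Igkv14-126 had 76 counts in it, 64 and 131 in Tspan8neg MHCIIlow, 2 in replicate 2 of Tspan8neg MHCIIhigh and 0 in the other 4 libraries. This pair of V genes took 42.3% (31.5 to 53.8) of Igh V and 48.1% (40.4 to 55.8) of Igk V counts in that library, against 6.74% and 9.13%, and 7.55% and 8.42%, in Tspan8neg MHCIIlow. With the partner replicate at 0 of 11 Igh V and 0 of 3 Igk V counts, the pattern has no replicate check. Ighv6-3, with 7 and 19 counts in Tspan8pos MHCIIlow and 10 and 20 in Tspan8neg MHCIIlow, was the only V gene at 2.06 CPM or more in 2 libraries outside Tspan8neg MHCIIlow.

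A few V genes went another way and were picked out after their values were seen. Igkv6-29 had 9, 6, 9 and 3 counts in the 4 MHCIIhigh libraries and 0 in all 4 MHCIIlow libraries, where 0 counts allow up to 0.385 to 1.55 CPM, and 54.5% of its 54-base windows are shared, mostly with Igkv6-20. Ighv8-12 had 26 counts in replicate 2 of Tspan8neg MHCIIhigh and 1 in all other libraries together. Igkv6-15 had 24 counts in replicate 2 of Tspan8neg MHCIIlow, 23 in replicate 2 of Tspan8neg MHCIIhigh and 2 elsewhere. B230359F08Rik, an alpha chain V gene, had 20 counts in replicate 2 of Tspan8pos MHCIIlow and at most 4 elsewhere.

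Among TCR V genes, Trbv13-2 had 16 and 48 counts in Tspan8neg MHCIIlow, 3 and 13 in Tspan8neg MHCIIhigh, 3 and 2 in Tspan8pos MHCIIhigh and 1 and 8 in Tspan8pos MHCIIlow. It was called lower in both comparisons with Tspan8neg MHCIIlow. It passed the filter only with the help of that subset, so these calls are no support. Both were lost when any library but replicate 1 of Tspan8neg MHCIIlow was left out (log2 −3.79 to −2.23 and −3.53 to −1.89). The gamma chain V gene Trgv2 had 11 and 46 counts in Tspan8neg MHCIIlow, 1 count in replicate 2 of Tspan8neg MHCIIhigh and 0 in all 4 Tspan8pos libraries, at least 25.0-fold lower in Tspan8pos MHCIIlow against a floor of 3 counts over that subset. Tcrg-V4 showed the like, with 7 and 33 counts in Tspan8neg MHCIIlow and at most 1 in each other library.

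Genes of the TCR complex moved with the TCR genes. Over 13 such genes, the summed level was 452 and 1310 CPM in Tspan8neg MHCIIlow and 63.9 to 163 CPM in the other 6 libraries. Of these 13, 8 were called lower in Tspan8pos at MHCIIlow and 9 in MHCIIhigh within Tspan8neg, beside 9.34% and 9.67% of all genes. None was called at MHCIIhigh (of all genes, 7.45% lower and 11.0% higher) or within Tspan8pos (2.62% and 4.59%). Cd3g, a signalling chain of the complex, fell by 3.81 ± 0.49 and fell by 4.26 ± 0.48 on the log2 scale in the 2 comparisons with Tspan8neg MHCIIlow. Of 11 tested genes of V(D)J recombination, the cutting and joining of segments, 2 were called lower in the former and 4 in the latter comparison. None was called higher, and the medians were −0.29 and −0.34. The former count was near the 9.34% of all genes called lower, and the latter stood beside 9.67%. The list holds general DNA repair genes, and Xrcc5 and Xrcc6, of the Ku end-binding complex, were among the called genes, Xrcc5 in both and Xrcc6 within Tspan8neg. The Xrcc5 calls were lost without either replicate of Tspan8pos MHCIIlow (−1.05 and −1.62) and without replicate 2 of Tspan8neg MHCIIhigh (−1.03), and that of Xrcc6 without replicate 2 of Tspan8neg MHCIIlow (−0.99) or either replicate of Tspan8neg MHCIIhigh (−1.61 and −1.89). Rag1, of the recombinase, was called only within Tspan8neg (−2.92) and not without replicate 1 of Tspan8neg MHCIIhigh (−2.32), whereas the joining factor gene Xrcc4 stood at 8.10 and 5.34 CPM in Tspan8neg MHCIIlow and 12.3 and 12.3 CPM in Tspan8neg MHCIIhigh and was not called. Dntt, which adds bases at junctions in immature lymphocytes, fell by 3.14 ± 0.61 and fell by 3.65 ± 0.60. The former call of Dntt was lost without either replicate of Tspan8pos MHCIIlow (−2.85 and −3.96). Dntt stood at 83.3 and 263 CPM in Tspan8neg MHCIIlow and at 4.60 to 21.3 CPM elsewhere. Ptprc, which encodes CD45, the protein used for depletion and gating, was at 92.0 and 221 CPM in Tspan8neg MHCIIlow, 12.5 and 24.4 CPM in Tspan8neg MHCIIhigh, 16.0 and 23.8 CPM in Tspan8pos MHCIIhigh and 51.0 and 68.6 CPM in Tspan8pos MHCIIlow.

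B lineage genes showed no common direction. The sum over 15 of them was 161 and 201 CPM in Tspan8neg MHCIIlow, 347 and 363 CPM in Tspan8neg MHCIIhigh, 190 and 191 CPM in Tspan8pos MHCIIhigh and 226 and 174 CPM in Tspan8pos MHCIIlow. Of 13 tested, 2 were called higher and 2 lower in Tspan8pos at MHCIIlow, and 1 was called higher and none lower in MHCIIhigh within Tspan8neg, counts near the 12.1% and 9.34% and the 13.1% and 9.67% of all genes. Their median log2 differences were −1.31 and 0.78. Blnk, an adaptor of B cell receptor signalling, made up much of the sum, at 61.9 and 63.9 CPM in Tspan8neg MHCIIlow, 196 and 201 CPM in Tspan8neg MHCIIhigh and 120 to 155 CPM in the Tspan8pos libraries, and was called higher in both comparisons. Cd79a, a signalling chain of the B cell receptor, was called lower in Tspan8pos at MHCIIlow (−2.90), a call lost without either replicate of Tspan8pos MHCIIlow (−2.84 and −3.13). Cd79b, the other such chain, was called higher in that comparison. It was at 10.1 and 19.1 CPM in Tspan8neg MHCIIlow and 38.1 and 29.5 CPM in Tspan8pos MHCIIlow. The Cd79b call was lost without replicate 1 of Tspan8neg MHCIIlow (0.975) or either replicate of Tspan8pos MHCIIlow (1.17 and 1.55) or Tspan8pos MHCIIhigh (1.34 and 1.35). Pax5, the transcription factor of B cell identity, was at 4.92 and 10.7 CPM in Tspan8neg MHCIIlow and at 14.7 and 19.4 CPM in Tspan8neg MHCIIhigh.

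Plasma cell genes split. Of 10 tested, 3 were called higher and 4 lower in Tspan8pos at MHCIIlow, and 3 higher and 2 lower in MHCIIhigh within Tspan8neg. The medians were −1.50 and −0.12. Of all genes, 12.1% were called higher and 9.34% lower in the former comparison, and 13.1% and 9.67% in the latter. Jchain, which links IgM and IgA into polymers, was at 65.7 and 101 CPM in Tspan8neg MHCIIlow, 5.93 and 3.42 CPM in Tspan8neg MHCIIhigh, 0.736 and 0.969 CPM in Tspan8pos MHCIIhigh and 0.515 and 5.01 CPM in Tspan8pos MHCIIlow. It fell by 4.28 ± 0.44 in Tspan8pos at MHCIIlow (adjusted p = 2.057e-05) and fell by 4.21 ± 0.41 in MHCIIhigh within Tspan8neg (adjusted p = 1.965e-05), and Mzb1, a chaperone of immunoglobulin assembly, was called lower in both too. Without replicate 2 of Tspan8neg MHCIIlow the Mzb1 differences were −1.94 and −2.96 and no longer called, and leaving out either replicate of Tspan8neg MHCIIhigh also ended both calls, as did leaving out either replicate of Tspan8pos MHCIIlow or replicate 2 of Tspan8pos MHCIIhigh for the call at MHCIIlow. Tnfrsf17, which encodes the plasma cell survival receptor BCMA, went the other way within Tspan8neg, at 0.579 and 0.255 CPM in Tspan8neg MHCIIlow and 8.79 and 9.85 CPM in Tspan8neg MHCIIhigh, and was called higher (log2 4.42 ± 0.65, adjusted p = 0.0002928). Derl3, of protein degradation at the endoplasmic reticulum, was at 3.76 and 5.60 CPM and 14.9 and 15.2 CPM in these subsets and was also called higher (1.67 ± 0.36), a call lost without replicate 1 of Tspan8neg MHCIIlow (1.44) or either replicate of Tspan8neg MHCIIhigh (1.76 and 1.75). Irf4, Xbp1, Sdc1 and Prdm1, which plasma cells share with other cells, stood at 11.8 to 597 CPM in the 8 libraries, and the sum of the list of 10 was 497 to 528 CPM in Tspan8neg and 1009 to 1034 CPM in Tspan8pos libraries.

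Markers of other cells did not all rank the subsets alike. Summed levels of 14 myeloid and dendritic cell genes were lowest in Tspan8neg MHCIIlow, at 62.5 and 145 CPM, against 169 to 535 CPM elsewhere. Of 12 tested, 5 were called higher in MHCIIhigh within Tspan8neg and none lower, beside 13.1% and 9.67% of all genes. In Tspan8pos at MHCIIlow, 1 was called higher and 1 lower, beside 12.1% and 9.34% of all genes. The latter was Itgax, at 9.55 and 27.7 CPM in Tspan8neg MHCIIlow and 0 to 6.57 CPM elsewhere, a call lost without replicate 2 of Tspan8pos MHCIIlow (log2 −9.34). Summed levels of 8 fibroblast and endothelial genes were 190 and 311 CPM in Tspan8neg MHCIIlow and 66.5 to 207 CPM elsewhere. Those of 5 erythroid genes were 71.8 and 110 CPM against 30.0 to 66.7 CPM. Those of 5 cortical epithelial genes were 243 and 468 CPM against 108 to 972 CPM. Those of 8 genes of leukocytes in general were 737 and 1327 CPM in Tspan8neg MHCIIlow and 837 to 1663 CPM elsewhere. Laptm5, at 267 to 924 CPM, made up much of this last sum. Of the 8, 3 were called lower and 1 higher in Tspan8pos at MHCIIlow, beside 9.34% and 12.1% of all genes. In MHCIIhigh within Tspan8neg, 4 were called lower and 2 higher, beside 9.67% and 13.1%. Calls of Cd53, Coro1a, Cd37 and Rac2 among these were lost in some fits without a library. The part of these cells and of library depth in the antigen receptor counts was not tested.

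**Figure D5:**
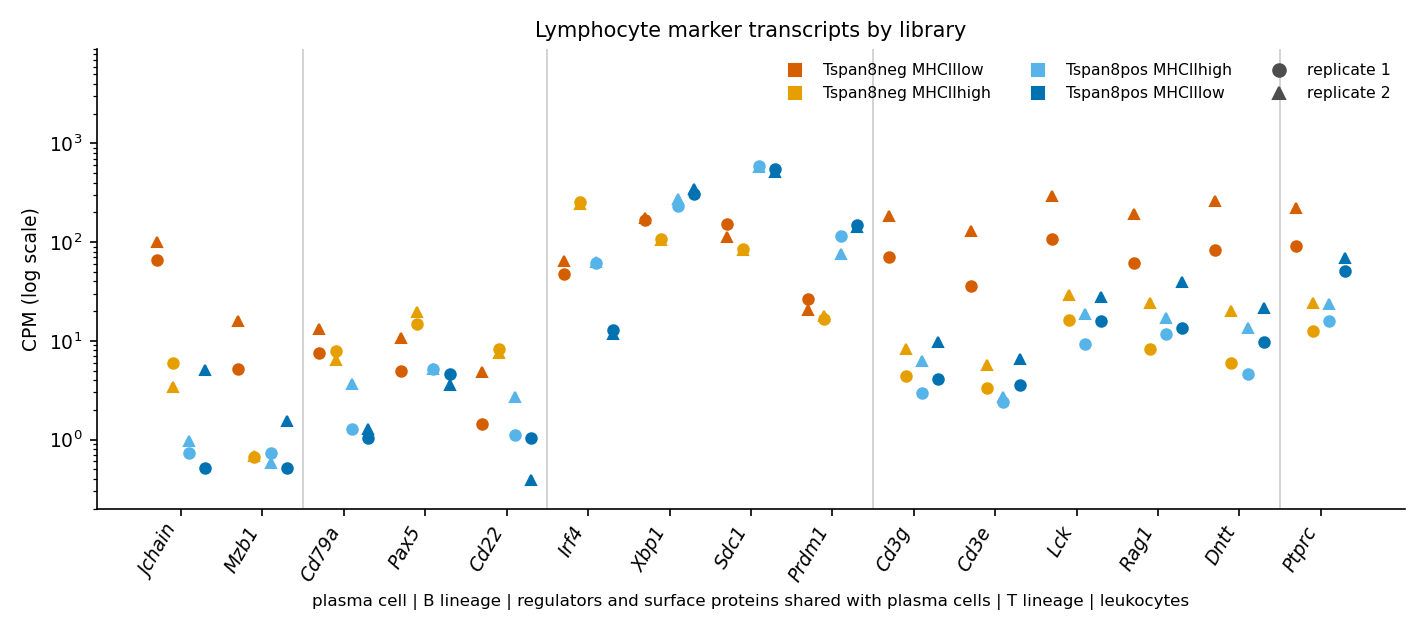
CPM of 15 lymphocyte marker genes (log axis), with 1 point per library coloured by subset. Jchain, Cd3g and Dntt are highest in the 2 Tspan8neg MHCIIlow libraries, at 65.7 and 101, 70.0 and 185 and 83.3 and 263 CPM, whereas Pax5 and Irf4 are highest in Tspan8neg MHCIIhigh, at 14.7 and 19.4 and at 254 and 241 CPM.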

How the data were processed

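RNA-seq of 8 libraries of sorted wild-type mouse mTECs was analysed, 2 for each combination of Tspan8 and MHCII, grouped by the sample titles. The unit is estimated counts, deposited by the authors as whole numbers without normalization in 1 table. Per the submitters' processing notes and the methods, 54-base single-end reads were quantified with Salmon 1.8.0 on the Gencode vM10 transcriptome (mm10), with FastQC and DESeq2 1.30.0. The authors' DESeq2 values were not used here. The kit is given as strand-specific in the labels and as pre-amplification with tagmentation in the methods, so overlapping genes are reported as uncertain.

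Gene types, positions and sequences came from a later GENCODE release on GRCm38, which matched 25336 of 25466 identifiers. CPM is the count divided by a library's total and scaled to 1000000. Counts were tested in R 4.3.3 with edgeR 4.0.16 (quasi-likelihood test, TMM, filterByExpr, a mean per subset over all 8 libraries, common dispersion 0.024), with p-values adjusted over 17006 genes. All p-values are two-sided, and SE is the log2 difference divided by the square root of F. Groups of 2 cannot reach 0.05 in an exact permutation test. The scripts were tested on simulated data.

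The named genes are all C genes, the 5 V and 2 J genes per locus with the highest mean, every called gene (the 10 with the smallest adjusted p where more were called) and marker lists. Genes, lists and tests were chosen with earlier results of these data known. Alternatives were DESeq2 1.42.0, its size factors, other filters, only the 4 libraries of a comparison, the replicate number as a block, a threshold of 0.05, no fold limit and leaving out each library. Replicates differed beyond sampling noise (chi-square of 2.84 to 7.68 per gene).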

Additional observations from a re-analysis of the deposited data

Results flagged for a closer look

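Of all genes, 2.24% were called higher and 2.36% lower for the difference between the 2 MHCII effects. The difference between the MHCII effects in Tspan8pos and Tspan8neg passed the edgeR test for 1 antigen receptor gene and 5 marker genes. It was 4.96 for Ighg2b on the log2 scale, where the MHCII difference was −5.64 in Tspan8neg and −0.68 in Tspan8pos. For the markers it was 2.83 for Krt5 and 2.29 for Krt14, basal keratins of mTECs, −1.97 for the costimulatory ligand gene Cd80, −1.62 for Blnk and −1.25 for Laptm5.

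Among 8 pseudogene segments, which were outside the comparisons, 3 exceeded 3 counts in a library. Igkv8-31 had 6 counts and Igkv14-118-2 had 4 counts in replicate 2 of Tspan8neg MHCIIhigh, and Ighv1-73 had 4 counts in replicate 1 of that subset. All 3 had at most 1 count in each Tspan8neg MHCIIlow library. There is no control sample, and the counts are close to the floor of 3.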

How the results depend on the processing

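The number of called antigen receptor genes was 35 for Tspan8pos against Tspan8neg at MHCIIlow and 37 for MHCIIhigh against MHCIIlow in Tspan8neg. It was 22 and 19 with DESeq2 and 13 and 12 with a minimum of 10 counts in 4 libraries, which left 15 of the 47 genes in the test, and leaving out a library gave 15 to 51 and 20 to 53. For the Tspan8 comparison at MHCIIhigh, 1 gene was called, against 2 with DESeq2, 3 without a filter, 6 in a fit of only the 4 libraries, 4 at an adjusted p of 0.05 and 0 to 6 without a library. Within Tspan8pos, 0 were called, against 3 without a filter, 2 with only the 4 libraries, 5 at an adjusted p of 0.05 and 0 to 2 without a library. The interaction called 1 gene, against 4 with DESeq2, 8 without a filter, 8 at an adjusted p of 0.05 and 0 to 11 without a library. With the replicate block, the counts of the 5 comparisons were 36, 5, 40, 1 and 10. Over all 17006 tested genes the deviations of same-numbered libraries correlated by 0.004 to 0.0924, so the libraries were not treated as pairs, although the summed immunoglobulin and TCR levels were higher in replicate 2 in all 4 subsets. The cause of these changes was not tested beyond the smaller number of genes or libraries that an alternative leaves. Of 48 calls of single named genes, 9 were lost with DESeq2, 8 of 47 in fits of 4 libraries, none with DESeq2's size factors, without a filter or with the replicate block, and up to 12 without a library. No direction of these calls was reversed. The 72 alternative values of the summed ratios lay within the replicate SD of the main values. With 2 libraries per subset, leaving 1 out could hardly move a ratio beyond that SD, so for such values this is no sign of stability. The immunoglobulin sum within Tspan8pos, −0.78 on the log2 scale, was 0.86 without replicate 2 of Tspan8pos MHCIIlow. The small TCR ratios at MHCIIhigh and within Tspan8pos also changed sign without 1 library (up to 0.21 and 0.27). Depth is least in replicate 1 of Tspan8pos MHCIIlow, where 3 counts stand for 1.55 CPM.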
